A study of Mus musculus with 15 samples.

Results

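The genes described here are those of mouse chromosome 14 whose start lies in the 62 Mb that begin at 60 Mb in the GRCm38 build, measured by RNA sequencing in 4T1 cells, a mouse mammary carcinoma line. Of 27179 gene identifiers in the count files, 316 lay in this window, and 150 of them had at least 10 reads in at least 3 of the 15 libraries and are called members below. Of the others, 165 fell under that minimum, 107 of them with no read in any library, and 1 was left out by name. The members comprised 136 protein-coding genes, 7 long noncoding RNAs, 5 microRNA hairpins, 1 small nucleolar RNA and 1 transcribed pseudogene. The members were chosen by position and by these read counts, and the bounds of the window came from earlier results of these same libraries, so the counts and medians over the members describe it and support nothing.

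E1, E2, A and M are clones, of which each grew from 1 isolated cell of a parental culture that had received the pNLS-iRFP670 plasmid, and their genotype is labelled iRFP670 expressing. The parental population is the uncloned 4T1 line, labelled WT. Each population gave 3 libraries labelled as biological replicates, made from total RNA after 72 hours in culture at about 80% confluency. The clones were also kept under G418, which was withdrawn for the culture that gave the RNA. Each clone is 1 cell's descent, and transfection, the reporter, drug selection and cloning separate every clone from the parental population together, so these cannot be told apart.

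Libraries held 20143111 to 36831801 counts, of which 6 genes took 61.4 to 72.1% and 1 gene alone 36.8 to 49.3%. The highest shares of that gene were in E2 replicate 1 (49.1%) and parental replicate 1 (49.3%). Replicate 1 also had the highest share within E1 (44.1%), A (39.3%) and M (44.7%). Members drew 35007 to 121204 counts a library. All 10 epithelial markers were at 1 CPM (counts scaled to the size of each library after its adjustment by the trimmed mean of M-values, TMM) or more on average, and their summed level was 662 to 808 CPM in E1, 646 to 717 in E2, 745 to 892 in A and 615 to 823 in M, against 384 to 434 CPM in parental libraries. Of these markers 7 were called higher for E1, 6 for E2, 5 for A and 8 for M, while 2 were called lower in A and 1 in M, among them Cdh1, which averaged 22.4 CPM in A and 36.3 CPM in M, against 68.2 CPM in parental. Leukocyte markers summed to at most 1.24 CPM, with Cd3e, Itgam and Adgre1 at 0 in every library. Endothelial markers summed to at most 0.425 CPM. Of 7 fibroblast markers only Pdgfra averaged over 1 CPM (26.4 CPM in A, 7.13 CPM in parental), and Dcn and Lum were at 0.

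Chromosome 14 beyond 60 Mb carries Rb1, the retinoblastoma protein that holds E2F transcription factors in check, and 2 microRNA loci known from cancer. Dleu2 hosts Mir15a and Mir16-1, which restrain cell cycle and survival genes. Mir17hg hosts the cluster of Mir17, Mir19a and Mir20a, which is known as a growth-promoting locus. A microRNA pairs with its targets mainly through its seed, bases 2 to 8. The mature sequences below, from RefSeq on GRCm38.p6, belong to the 5 microRNA members and show 3 seeds among them, with the seed in capitals.
miR-15a-5p: uAGCAGCAcauaaugguuugug
miR-16-5p: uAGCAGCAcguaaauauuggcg
miR-17-5p: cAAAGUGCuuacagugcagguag
miR-20a-5p: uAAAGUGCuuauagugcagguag
miR-19a-3p: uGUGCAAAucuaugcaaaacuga

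miR-15a and miR-16 lie on the minus strand at chr14:61632075-61632096 and chr14:61631936-61631957 and share 1 seed. miR-17, miR-20a and miR-19a lie on the plus strand at chr14:115043684-115043706, chr14:115044183-115044205 and chr14:115044048-115044070, and the first pair share a seed that miR-19a lacks. These libraries count reads of longer RNA over the hairpin and do not measure the mature forms. The 5 hairpins averaged 0.186 to 1.46 CPM in the 5 populations, and edgeR's quasi-likelihood test with Benjamini-Hochberg adjustment gave an adjusted p of 0.52 or more for each of them in each clone against parental.

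Promoters from 250 bases before to 50 after the start are shown for 4 members whose expression is described below, with the dinucleotide CG in capitals, read 5′ to 3′ on the gene's own strand. Dzip1 is shown because it had the largest fall, Tnfrsf19 because it had the largest rise in A, and Dis3 and Pibf1 because they start 346 bases apart on opposite strands and differed in whether they were called. For Dzip1 and Tnfrsf19, which have several starts in the promoter table, the outermost of that table is given, which for Dzip1 lies inside the annotated end of the gene.
Dzip1, chr14:118925421-118925720, minus strand: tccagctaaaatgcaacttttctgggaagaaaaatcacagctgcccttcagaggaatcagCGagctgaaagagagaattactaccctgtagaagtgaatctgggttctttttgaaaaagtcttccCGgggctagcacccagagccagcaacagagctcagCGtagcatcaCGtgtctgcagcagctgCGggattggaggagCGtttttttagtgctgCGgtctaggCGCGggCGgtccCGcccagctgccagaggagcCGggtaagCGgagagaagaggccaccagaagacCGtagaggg
Dis3, chr14:99099721-99100020, minus strand: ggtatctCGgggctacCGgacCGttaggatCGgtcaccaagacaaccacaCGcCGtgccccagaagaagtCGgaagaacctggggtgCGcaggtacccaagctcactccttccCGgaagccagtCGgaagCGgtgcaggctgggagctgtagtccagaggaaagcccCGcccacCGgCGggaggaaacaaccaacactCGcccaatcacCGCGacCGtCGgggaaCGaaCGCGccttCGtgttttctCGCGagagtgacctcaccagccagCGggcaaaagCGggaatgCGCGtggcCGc
Pibf1, chr14:99099174-99099473, plus strand: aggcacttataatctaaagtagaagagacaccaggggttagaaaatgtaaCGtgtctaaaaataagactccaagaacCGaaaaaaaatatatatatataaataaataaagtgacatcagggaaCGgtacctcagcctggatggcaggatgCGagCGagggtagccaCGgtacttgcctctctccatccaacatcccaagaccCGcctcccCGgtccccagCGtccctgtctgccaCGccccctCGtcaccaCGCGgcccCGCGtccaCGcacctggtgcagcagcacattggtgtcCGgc
Tnfrsf19, chr14:61046806-61047105, minus strand: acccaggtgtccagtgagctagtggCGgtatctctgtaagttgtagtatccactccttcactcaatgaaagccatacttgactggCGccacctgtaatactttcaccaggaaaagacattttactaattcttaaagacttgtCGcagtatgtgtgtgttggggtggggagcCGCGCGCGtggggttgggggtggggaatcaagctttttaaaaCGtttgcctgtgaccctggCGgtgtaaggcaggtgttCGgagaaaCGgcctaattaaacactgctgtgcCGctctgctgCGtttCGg

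CG, which reads the same on both strands, occurred 14 times in the Dzip1 window, 30 times in that of Dis3, 17 times in that of Pibf1 and 14 times in that of Tnfrsf19. Of 32851 mouse promoters of that length in the table, 36.3% held at least 14, 11.7% at least 30 and 31.4% at least 17. Promoters of the 76 members with an entry held a median of 20, against 7 over the whole table. Expression in these libraries was tested for 12712 genes, so the table also holds promoters of many genes not read here.

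Most members were lower in the clones than in the parental population, most of all in E2 and E1, with named exceptions that were higher in A. A gene is called at an adjusted p under 0.05 by edgeR's quasi-likelihood test, fitted to 12712 genes in all 15 libraries, 149 of them members. In E1, 40 members were called lower and 0 higher, beside 15.1% of all genes called in either direction (7.35% lower and 7.77% higher). In E2, 65 were called lower and 0 higher, beside 17.9% of all genes (8.80% lower and 9.14% higher). In A, 40 (26.8%) were called lower and 12 (8.05%) higher, beside 30.0% of all genes (14.9% lower and 15.1% higher). In either direction that is 34.9% of members against nearly as large a background. In M, 15 (10.1%) were called lower and 3 (2.01%) higher, or 12.1% of members, beside a background of 14.1% (6.28% lower and 7.87% higher). The share called in M in either direction was thus no larger than that of all genes. By direction, the members' lower calls in A and M were above the background and their higher calls below it. These comparisons share the parental libraries. In bulk RNA, fewer cells that express a gene and less RNA in each cell cannot be told apart.

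The median log2 fold change of the members was -0.48 for E1, -0.71 for E2, -0.23 for A and -0.32 for M, each against parental, while that of all genes tested was -0.01, 0.01, 0.03 and -0.01. Called or not, 84.6% of members had a log2 fold change below 0 for E1, 87.9% for E2, 63.8% for A and 73.8% for M, against 51.0, 49.3, 48.1 and 50.6% of all genes. Without E2 replicate 1 and parental replicate 1, the calls numbered 36 for E1, 55 for E2, 54 for A and 16 for M, and the medians were -0.48, -0.74, -0.33 and -0.30. Without E1 replicate 2 alone, the calls in E1 fell to 24. Shares of all genes called are given for the main fit only, so the counts of other fits, here and below, have no background beside them.

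The lower level was not limited to the far part of the chromosome that the window names. The 251 tested genes of chromosome 14 before 60 Mb had median log2 fold changes of -0.46 for E1, -0.75 for E2, -0.34 for A and -0.36 for M, close to the members' own. The test called lower 21.9% of these proximal genes for E1, 46.6% for E2, 26.3% for A and 12.7% for M. In intervals of 10 Mb along the chromosome the E2 median lay between -1.02 and -0.52 wherever an interval held 6 genes or more. The 3 tested members between 80 and 90 Mb were the exception, with medians of 0.03 in E1 and -0.05 in E2. The bound at 60 Mb is thus a matter of the rule, and chromosome 14 genes on both sides of it were lower in the clones.

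**Figure D1:**
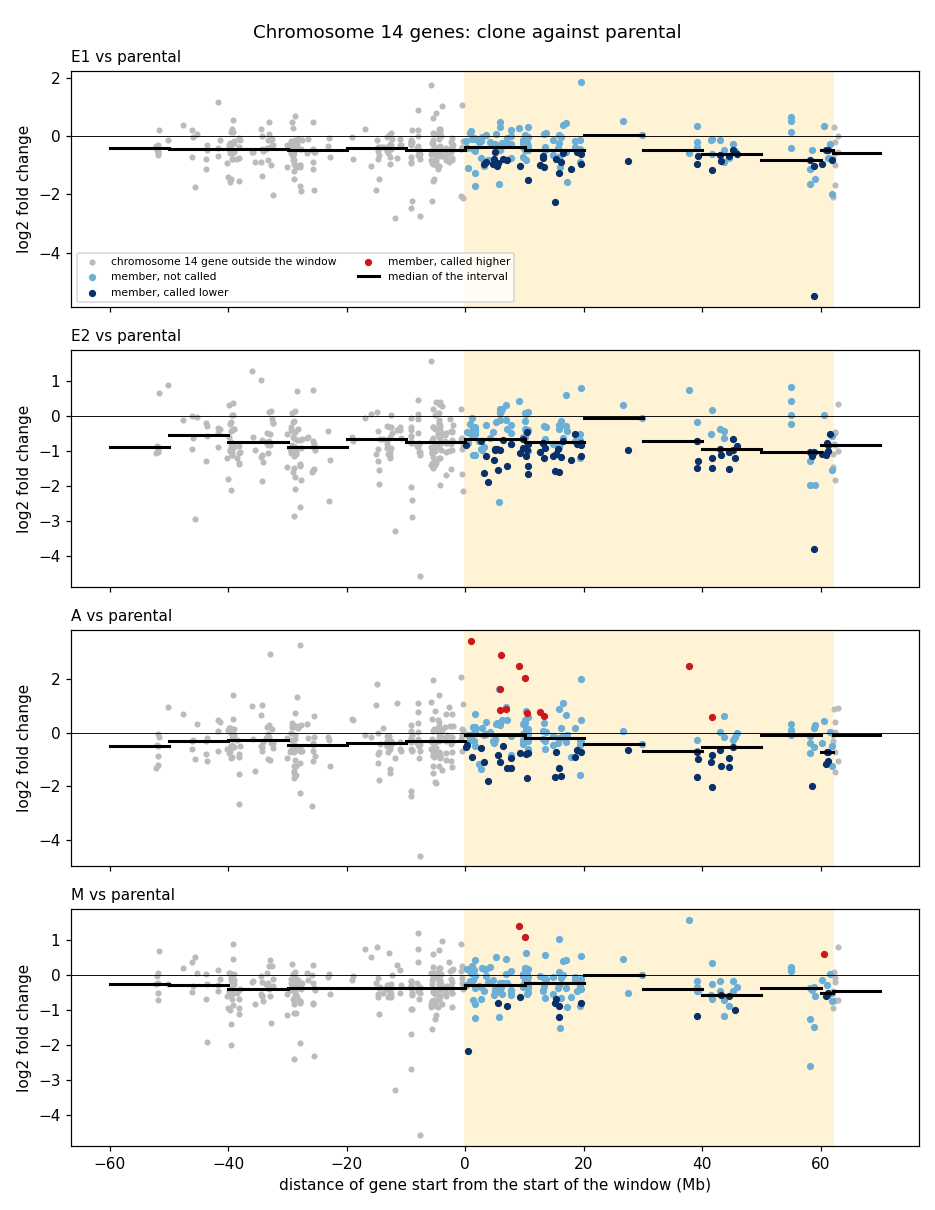
Log2 fold change of each tested chromosome 14 gene (vertical axis) against the distance of its start from the start of the window in Mb (horizontal axis), for E1, E2, A and M against parental; the shaded span is the window, black bars are medians of the intervals, and colours give members called lower, called higher or not called. Most medians of the intervals lie below 0 on both sides of the window's start, those of the 3 tested members between 80 and 90 Mb being above 0 in E1 and M, and members called higher appear in the A and M panels only.

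Genes next to the bounds had values of the same kind on both sides. Just before the window, Cdadc1 had a log2 fold change of -0.15 for E1, -0.83 for E2, 0.11 for A and -0.34 for M. Just inside, Nupl1, a nuclear pore protein also called Nup58, had -0.16, -0.82, -0.53 and -0.27, and Mtmr6, a phosphoinositide phosphatase, had -0.40, -0.46, -0.45 and 0.19. At the far end Ubac2 was inside with -0.81, -0.57, -0.48 and -0.51, and Tm9sf2 outside with -0.73, -1.09, -0.33 and -0.45. Gpr18, the other gene just inside, averaged 0.0731 to 0.509 CPM. Shisa2 before the window and A330035P11Rik after it stayed under 0.6 CPM. At the count minimum, Epsti1 reached 10 reads in 3 libraries and was a member, though too low to test, while Egr3, Gm9209 and Gpr183 reached it in 2 and were not.

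Among the 20 chromosomes, chromosome 14 had the lowest median in E1 (-0.46, with chromosome 9 next at -0.34) and in E2 (-0.75, with chromosome 8 next at -0.25). In A it was second lowest at -0.30, after chromosome 15 at -0.32. In M it was second lowest at -0.34, after chromosome 8 at -0.38. The highest medians of other chromosomes in these comparisons were 0.22, 0.30, 0.29 and 0.26. The 413 tested genes of chromosome 14 include the members, whose window came from these same libraries. Its ranks, here and below, are thus descriptions.

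**Figure D2:**
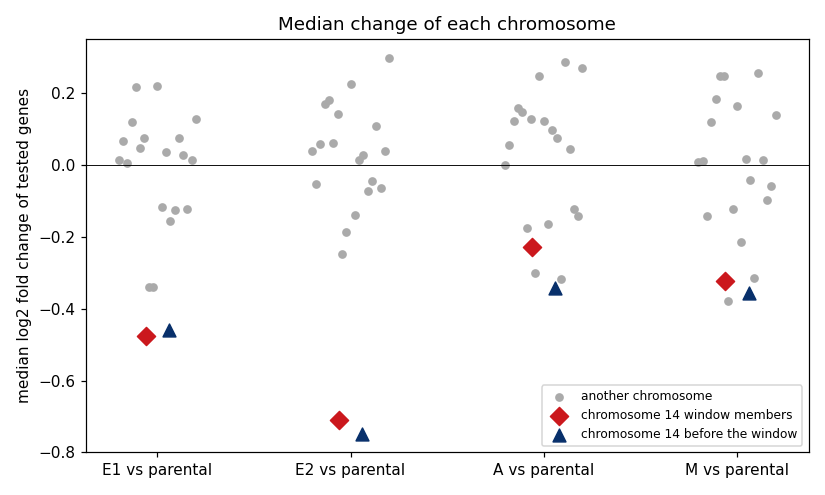
Median log2 fold change of the tested genes (vertical axis) of each chromosome, for the 4 clones against parental (horizontal axis); diamonds are the window members, triangles the chromosome 14 genes before the window and grey points the other chromosomes. In E1 and E2 both chromosome 14 points lie below every other chromosome, while in A and M other chromosomes lie at or near the same level.

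By library, the median deviation of the members from their 15-library mean log2 CPM was -0.13, -0.12 and -0.04 in E1 and -0.40, -0.31 and -0.31 in E2. It was 0.07, 0.13 and 0.08 in A and 0.04, 0.12 and 0.15 in M. It was 0.31, 0.45 and 0.42 in parental libraries. No clone library overlapped the parental ones, E2 lay lowest, E1 next, and A and M overlapped each other. Members made up 0.720% ± 0.0182 of the counts outside the 6 most abundant genes for E1, 0.593% ± 0.0243 for E2, 0.863% ± 0.0123 for A and 0.827% ± 0.0307 for M, against 1.02% ± 0.0208 in parental (SD, n = 3 libraries each).

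**Figure D3:**
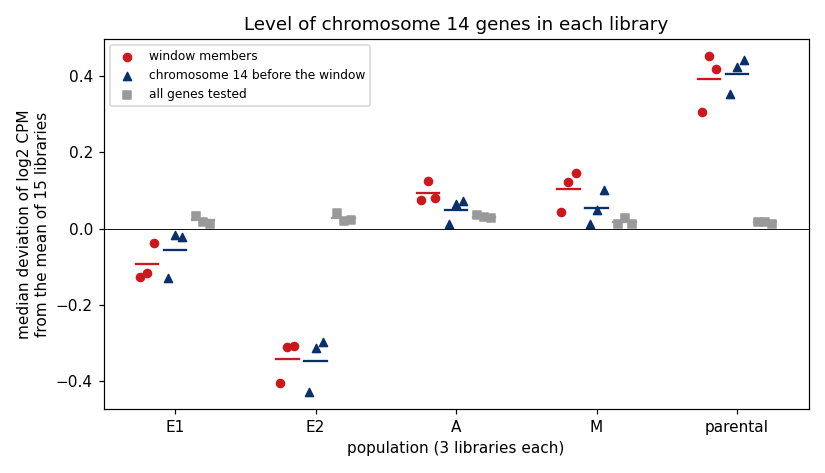
Median deviation of log2 CPM from the mean of the 15 libraries (vertical axis) for each library of the 5 populations (horizontal axis), over window members (circles), chromosome 14 genes before the window (triangles) and all genes tested (squares); bars are means of 3 libraries. Members lie between -0.40 and -0.31 in E2 and between 0.31 and 0.45 in parental, while all genes stay within 0.05 of 0.

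Members were grouped by function, and the counts of each list stand beside the shares of all genes called in either direction given above, 15.1% for E1, 17.9% for E2, 30.0% for A and 14.1% for M. Among all tested members the shares called were 26.8, 43.6, 34.9 and 12.1%. Of the 75 members at or above the members' median CPM, 31 were called lower in E1 and 51 in E2. Of the 74 below it, 9 and 14 were. The medians were -0.47 and -0.80 for the first set and -0.49 and -0.61 for the second. Calls thus went with level too, and differences between lists were not separated from it. Transcription machinery, RNA processing and nuclear transport formed the list with the most called members. Of its 19 tested members, 10 were called lower for E1, 16 for E2, 12 for A and 5 for M, and 0 higher, with median log2 fold changes of -0.47, -0.97, -0.72 and -0.44. These were 52.6, 84.2, 63.2 and 26.3% of the list. Dis3, the catalytic ribonuclease of the RNA exosome (chr14:99076634-99099780), had 38.5, 40.7 and 44.1 CPM in E1, 29.5, 29.4 and 28.1 in E2, 27.2, 22.01 and 26.8 in A and 36.3, 35.3 and 35.8 in M, against 82.9, 81.3 and 78.0 CPM in parental libraries. The highest clone library, at 44.1 CPM, lay far below the lowest parental one, at 78.0 CPM.

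Dis3 fell in every clone, with log2 fold changes of -0.97 (SE 0.0627) in E1, -1.48 (SE 0.0342) in E2, -1.67 (SE 0.102) in A and -1.17 (SE 0.0284) in M, and adjusted p of 2.56e-05, 5.26e-08, 1.34e-09 and 1.25e-06. Pibf1, a centrosome protein gene that starts beside it in the sequences above, had 3.96, 8.83 and 5.71 CPM in E1, 4.73, 3.04 and 5.23 in E2, 5.21, 5.45 and 6.52 in A and 2.95, 6.35 and 7.32 in M, against 5.80, 9.49 and 5.82 CPM in parental. Its libraries overlapped the parental ones in E1, A and M, while those of E2 all lay below them. Its log2 fold changes of -0.20, -0.69, -0.29 and -0.34 were not called in any clone (adjusted p 0.147 to 0.744). Pibf1 stood at a far lower level than Dis3, and a difference between the changes of the 2 genes was not tested. The 2 genes overlap at their starts, and how reads there were assigned is not given in the sources used here.

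Ipo5, an importin that carries ribosomal proteins and histones into the nucleus (chr14:120896840-120948046), was the most abundant member. It had 222, 231 and 234 CPM in E1, 151, 131 and 164 in E2, 138, 134 and 154 in A and 199, 217 and 216 in M, against 296, 294 and 365 CPM in parental. It fell in all 4 clones, with log2 fold changes of -0.47 (adjusted p = 0.0176), -1.10 (3.16e-06), -1.16 (3.46e-07) and -0.59 (0.00351) in E1, E2, A and M. Elp3, the acetyltransferase subunit of the Elongator complex, averaged 20.1 CPM for E1, 12.9 for E2, 21.3 for A and 21.7 for M, against 37.9 CPM in parental, and fell in each clone, with log2 fold changes of -0.91, -1.54, -0.83 and -0.80.

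Polr3d, a subunit of RNA polymerase III, and Nufip1, which takes part in small nucleolar ribonucleoprotein assembly, fell most in A. Polr3d had 3.45, 4.27 and 4.95 CPM in A, against 13.97, 13.6 and 14.3 in parental (log2 fold change -1.71, SE 0.150, adjusted p = 3.92e-06), and 7.09 CPM on average in E2 (-0.97, 0.00442). In E1 and M it averaged 11.8 and 9.61 CPM and was not called. Nufip1 averaged 6.46 CPM in E1, 5.31 in E2 and 3.89 in A, against 12.04 in parental, and was called lower in these 3, with 7.69 CPM in M (adjusted p = 0.0741). Xpo7, an exportin, fell in E2 (-0.79) and A (-0.78). Mbnl2, a splicing regulator, fell in E1 (-0.97) and E2 (-1.09). In contrast Kpna3, an importin alpha named after its values were seen, stayed between 50.6 and 63.5 CPM on average with log2 fold changes of -0.33 to -0.05, none called.

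Cell cycle and growth control had 18 tested members, of which 6 were called lower for E1, 9 for E2, 3 for A and 2 for M, and 1 higher in A. In either direction these were 33.3, 50, 22.2 and 11.1% of the list. The shares in A and M were below those of all genes (30.0 and 14.1%). Dzip1, a centriole protein needed for cilia in mice and zebrafish (chr14:118875517-118925537), had 0, 0.139 and 0.126 CPM in E1, 0.208, 0.698 and 0.365 in E2, 3.99, 4.37 and 5.99 in A and 1.98, 0.613 and 4.73 in M, against 7.47, 5.85 and 7.34 CPM in parental. The E1 and E2 libraries were all under 1 CPM, and the M libraries were far apart from each other. It fell, with log2 fold changes of -5.50 (SE 0.528, adjusted p = 5.30e-06) in E1 and -3.80 (SE 0.439, 8.55e-05) in E2, the largest falls of any member there, and was not called in A (-0.52, 0.475) or M (-1.47, 0.0557). In E1, 1 library had 0 reads, so the E1 value depends on the prior count of 2.

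Ppp2r2a, a regulatory subunit of protein phosphatase 2A (chr14:67014056-67072471), had 38.2, 39.4 and 41.9 CPM in E1, 25.8, 28.9 and 24.3 in E2, 29.4, 27.7 and 28.7 in A and 37.8, 40.6 and 36.2 in M, against 75.1, 59.3 and 77.8 CPM in parental. No clone library reached the parental range. It fell, with log2 fold changes of -0.83, -1.42, -1.31 and -0.89 in E1, E2, A and M, with adjusted p of 0.000247, 1.77e-07, 1.44e-07 and 9.98e-05. Sugt1, a co-chaperone needed at kinetochores, fell in E1 (-0.96), E2 (-1.12) and M (-0.79) but not by the test in A (-0.34, adjusted p = 0.143). Mzt1, a small protein of the gamma-tubulin complex, fell in E2 (-0.70) and A (-0.71). Ndfip2, an adaptor of Nedd4 ubiquitin ligases, fell in E2 (-0.66).

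Rb1 (chr14:73192858-73325951) had 14.6, 12.3 and 10.5 CPM in E1, 9.37, 14.5 and 13.0 in E2, 16.8, 19.6 and 17.6 in A and 15.6, 11.5 and 20.1 in M, against 15.1, 22.2 and 25.7 CPM in parental. The libraries of E1 and E2 lay below all parental ones, while those of A and M overlapped them. Rb1 fell, with log2 fold changes of -0.75 (SE 0.266, adjusted p = 0.0214) in E1 and -0.77 (SE 0.296, 0.0160) in E2, and its values in A (-0.23, 0.479) and M (-0.42, 0.220) were not called. The differences between clones were not called either, so a level of Rb1 that differs between E1 or E2 and the other clones was not shown. Of 24 tested genes of the Rb and E2F pathway outside the window, 2 were called higher and 0 lower in E1, 5 and 3 in E2, 9 and 2 in A and 4 and 1 in M. These are 8.33, 33.3, 45.8 and 20.8% of the pathway genes, beside 15.1, 17.9, 30.0 and 14.1% of all genes. Cdkn2a, Cdkn2b and Cdkn1c were at 0 in all libraries.

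Mir17hg, host of the microRNA cluster above, had 7.05, 12.4 and 6.49 CPM in E1, 12.2, 7.89 and 4.31 in E2, 9.33, 5.45 and 3.41 in A and 7.71, 6.47 and 6.77 in M, against 5.62, 6.96 and 5.29 CPM in parental. Its groups all overlapped. Its log2 fold changes of 0.53, 0.44, 0.02 and 0.23 were not called. Dleu2, named after its values were seen, averaged 0.442 CPM for E1, 0.886 for E2, 1.16 for A and 1.15 for M, against 1.15 CPM in parental, with none called.

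The cell death and survival list held genes that moved in different directions in different clones. Of 10 tested members, 3 were called lower and 0 higher in E1, 6 and 0 in E2, 1 lower and 3 higher in A, and 2 lower and 0 higher in M. In either direction these were 30, 60, 40 and 20% of the list. Tpt1, the abundant growth-related protein TCTP (chr14:75845256-75848303), had 44.3, 38.7 and 46.3 CPM in E1, 34.3, 35.9 and 32.5 in E2, 79.9, 108 and 84.3 in A and 60.2, 51.0 and 56.6 in M, against 104, 111 and 96.3 CPM in parental. E1, E2 and M lay below the parental libraries and A overlapped them. It fell, with log2 fold changes of -1.26, -1.59 and -0.89 in E1, E2 and M (adjusted p 1.21e-06, 3.30e-08 and 8.70e-05), while A had -0.19 (0.335). Tpt1 has processed copies elsewhere in the genome, and a snoRNA gene, Snora31, lies inside it, so its count is less certain than others.

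Itm2b, a membrane protein processed by furin (chr14:73362226-73385289), had 31.8, 35.1 and 36.7 CPM in E1, 21.96, 37.6 and 34.5 in E2, 87.6, 113 and 130 in A and 55.2, 50.7 and 69.6 in M, against 59.7, 82.1 and 74.7 CPM in parental. The A libraries all lay above, and the E1 and E2 libraries all below, the parental range. It rose in A (log2 fold change 0.61, SE 0.216, adjusted p = 0.0112), fell in E1 (-1.06, SE 0.149, 0.000237) and E2 (-1.20, SE 0.276, 5.32e-05), and was not called in M. Bnip3l, a mitophagy receptor, averaged 97.7 CPM in A and 69.98 CPM in parental and was not called (0.48, adjusted p = 0.0675). Akap11, a scaffold for protein kinase A, was called in E2 alone of the 4 comparisons with parental (-0.51, adjusted p = 0.0239).

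Clu, the secreted chaperone clusterin (chr14:65968483-65981548), set A apart. It had 57.8, 41.7 and 47.5 CPM in A, against 7.84, 5.74 and 6.04 CPM in parental, and 3.48 to 9.83 CPM over all libraries of E1, E2 and M. The highest library outside A stood at 9.83 CPM, far below the lowest of A. It rose by 2.89 (SE 0.194, adjusted p = 2.96e-09) in A and was not called in the other 3 clones. A was also higher than E1 (3.26, adjusted p = 6.01e-10) and E2 (2.75, 1.14e-08), and M was lower than A (-3.22, 2.44e-09).

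Matrix, adhesion and secreted factors had only 5 tested members of 27 listed, of which 3 were called higher in A and 0 lower there, 1 higher in M, and 1 and 2 lower in E1 and E2. These were 20, 40, 60 and 20% of the 5 for E1, E2, A and M. Scara3, a scavenger receptor protein induced by oxidative stress (chr14:65919394-65953978), had 34.6, 30.4 and 34.9 CPM in A, against 9.42, 14.2 and 8.44 CPM in parental, and 4.99 to 11.2 CPM in the E1, E2 and M libraries. It rose by 1.63 (SE 0.237, adjusted p = 1.38e-05) in A. It was also higher in A than in E1 (2.11) and E2 (1.75), and lower in M than in A. Stc1, the secreted glycoprotein stanniocalcin, had 10.1, 12.2 and 10.9 CPM in A and 2.64, 6.76 and 6.34 in M, against 0.836, 2.07 and 2.83 CPM in parental. It rose by 2.48 in A (adjusted p = 5.52e-05) and by 1.42 in M (0.0185), where 1 library overlapped the parental ones.

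Bmp1, a procollagen C-proteinase held here in the lists for both matrix and cell death, had 139, 124 and 121.9 CPM in A, against 82.1, 71.3 and 78.4 CPM in parental. It rose by 0.73 (SE 0.0839, adjusted p = 0.000287) in A and fell in E2 (-0.43, SE 0.0919, 0.0344), where it had 52.7, 56.5 and 62.2 CPM. Extl3, a glycosyltransferase of heparan sulfate synthesis, fell in E1 (-0.55) and E2 (-0.94). The fibroblast marker Pdgfra, the only tested gene of its list, was called against parental in A alone (1.88). Summed with the rest of its list it stood at 21.2 to 33.8 CPM in A against 6.96 to 7.56 CPM in parental. Dcn and Lum were at 0 in every library, and Pdgfrb, Col1a1, Col1a2 and Fap averaged at most 0.279 CPM in any population. A link between Pdgfra and the matrix list was not tested.

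Receptors and signal transduction had 21 tested members, with 3 called lower for E1, 4 for E2, 5 for A and 2 for M, and 3 called higher in A and 2 in M. Called in either direction were 14.3, 19.0, 38.1 and 19.0% of the list, beside 15.1, 17.9, 30.0 and 14.1% of all genes. Tnfrsf19, a receptor of the TNF family that is a Wnt target in intestinal stem cells of mice (chr14:60963834-61046855), had 10.7, 9.49 and 15.9 CPM in A, against 1.21, 1.26 and 0.756 CPM in parental. All 9 libraries of E1, E2 and M were between 0.352 and 1.62 CPM. It rose by 3.41 (SE 0.314, adjusted p = 9.03e-07) in A, the largest rise of any member there, and was not called in E1, E2 or M.

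Pdlim2, a PDZ and LIM protein that binds the actin cytoskeleton, was higher in both A and M. It had 19.1, 23.2 and 29.7 CPM in A and 12.2, 13.2 and 12.1 in M, against 5.66, 5.32 and 6.36 CPM in parental, with no overlap. It rose by 2.04 (adjusted p = 2.03e-07) in A and 1.10 (0.00144) in M, and M was below A by -0.94 (0.00388). In E1 it had 4.87, 2.97 and 4.38 CPM and in E2 4.47, 7.12 and 7.02 CPM, neither called. Rap2a, a small GTPase, rose in M (0.62, adjusted p = 0.0403), a call lost without M replicate 2, without parental replicate 1 or 2, and without E1 or E2 replicate 3.

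Lcp1, the actin-bundling plastin of leukocytes that many carcinoma lines also express (chr14:75131105-75230842), had 12.5, 6.92 and 5.93 CPM in E1, 15.6, 12.1 and 13.2 in E2, 11.7, 11.8 and 14.9 in A and 19.3, 30.4 and 20.8 in M, against 50.3, 40.9 and 30.9 CPM in parental. Every clone library lay below the parental ones. It fell, with log2 fold changes of -2.26, -1.57, -1.66 and -0.79 in E1, E2, A and M (adjusted p 1.15e-06, 6.05e-05, 9.55e-06 and 0.0249), the last lost without M replicate 1 or 3 or parental replicate 1 or 2. Leukocyte markers, at 0.191 to 0.975 CPM summed in parental libraries and up to 1.24 CPM in the clones, were near 0 beside it.

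Dpysl2, a microtubule-binding protein of axon growth, averaged 171 CPM in A, against 94.0 CPM in parental, and rose there (0.86, adjusted p = 0.000428). Dock5, an exchange factor for Rac, fell in A (-0.93), with 28.1 CPM against 53.6 CPM in parental, and averaged 53.0 CPM in E1 and 58.4 in M. Dock9, an exchange factor for Cdc42, fell in E2 (-0.50, adjusted p = 0.0409).

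**Figure D4:**
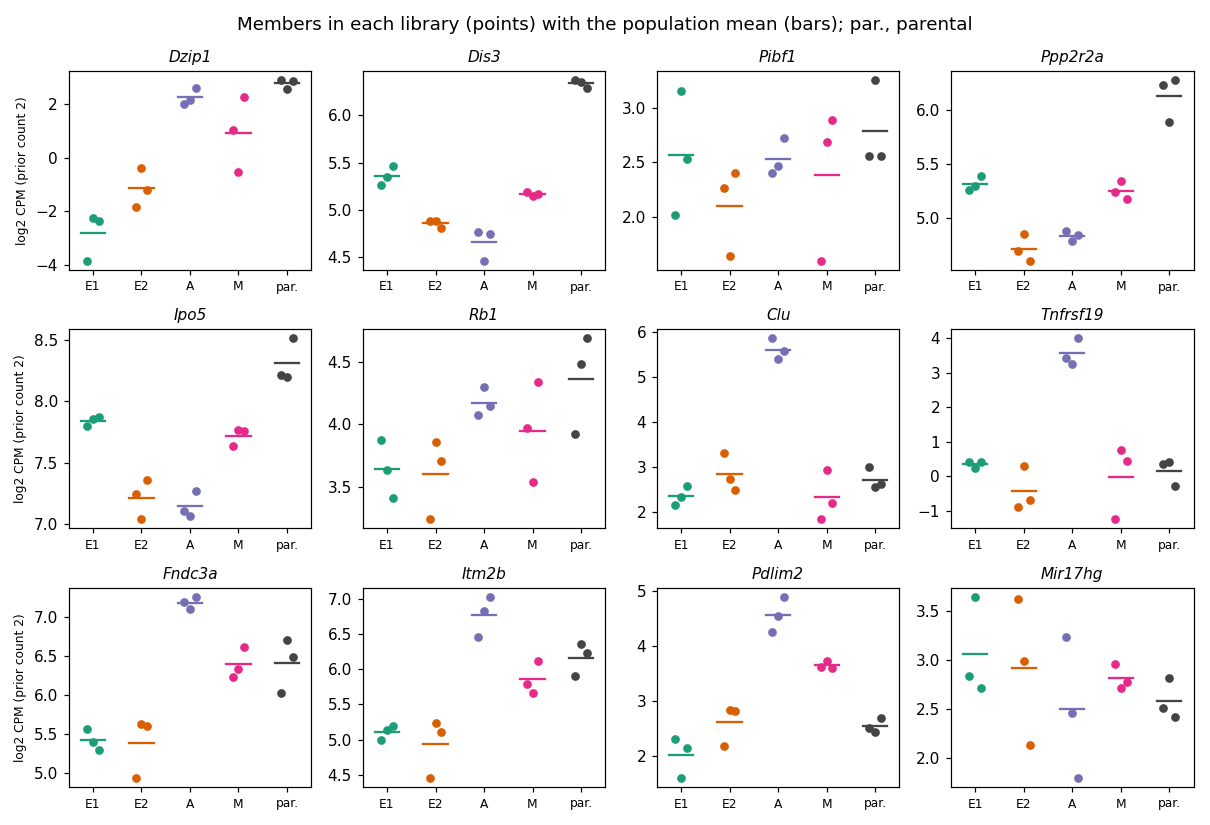
Log2 CPM with a prior count of 2 (vertical axes, scaled per gene) of 12 members in each library of E1, E2, A, M and parental; points are libraries and bars are means of 3. Dis3, Ppp2r2a and Ipo5 lie highest in the parental libraries, Clu and Tnfrsf19 in A, and Mir17hg overlaps throughout.

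Transcription factors and chromatin proteins had 12 tested members, with 5 called lower for E1, 6 for E2, 5 for A and 0 for M, and 2 higher in A. In either direction these were 41.7, 50, 58.3 and 0% of the list, the share in M being below the 14.1% of all genes. Klf5, a zinc finger factor of epithelial growth, had 19.0, 19.6 and 15.6 CPM in E1, 11.9, 10.9 and 13.3 in E2, 16.3, 15.1 and 13.4 in A and 18.1, 24.7 and 21.1 in M, against 35.0, 21.5 and 31.5 CPM in parental. It fell in E1 (-0.70), E2 (-1.28) and A (-0.97), and M overlapped the parental range. Elf1, an ETS factor, fell in E1 (-0.63), E2 (-0.82) and A (-0.71). Tdrd3, which reads methylated arginines, fell in E1 (-0.85), E2 (-0.97) and A (-0.66). Pou4f1, a POU factor of sensory neurons, fell in E2 (-1.49, adjusted p = 0.00591), a call lost without E2 replicate 1 and parental replicate 1 together (0.0768).

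Among 16 tested members for proteolysis, lysosome, ubiquitin and folding, 8 were called lower for E1, 9 for E2, 6 for A and 1 for M, and 0 higher. These were 50, 56.25, 37.5 and 6.25% of the list, the share in M being below the 14.1% of all genes. Ctsb, the lysosomal protease cathepsin B (chr14:63122462-63145923), had 41.9, 43.5 and 46.6 CPM in E1, 19.5, 30.6 and 33.8 in E2, 64.3, 84.0 and 91.9 in A and 59.0, 64.7 and 64.5 in M, against 90.8, 92.9 and 74.0 CPM in parental. E1, E2 and M lay below the parental libraries. It fell, with log2 fold changes of -0.96 (adjusted p = 0.000296) in E1 and -1.61 (3.65e-07) in E2, and was not called in A (-0.10, 0.705) or M (-0.45, 0.0727). Ctsb overlaps another annotated gene, and how reads there were assigned is not given in the sources used here.

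Mycbp2, a very large ubiquitin ligase of neurons, fell in all 4 clones, with log2 fold changes of -0.86, -1.11, -1.23 and -0.57 in E1, E2, A and M. Trim35, a tripartite motif protein, fell in E1 (-0.79), E2 (-0.69) and A (-0.50). Uchl3, a ubiquitin hydrolase, had 3.82, 4.89 and 3.84 CPM in A, against 18.1, 16.1 and 17.3 CPM in parental (-2.02, SE 0.125, adjusted p = 5.35e-07), and fell also in E2 (-1.18). Commd6, a COMM domain protein, fell in E1 (-1.18), E2 (-1.49) and A (-0.84), and Dmtn, an actin-binding protein of red cell membranes, in E1 (-1.50) and E2 (-1.42).

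Mitochondrial and metabolic members numbered 13 tested, with 3 called lower for E1, 6 for E2, 4 for A and 1 for M, and 0 higher. These were 23.1, 46.2, 30.8 and 7.69% of the list. The share in A was near the 30.0% of all genes, and that in M below their 14.1%. Slc25a37, the mitochondrial iron importer mitoferrin, averaged 31.1 CPM for E1, 30.7 for E2, 37.8 for A and 41.3 for M, against 63.8 CPM in parental, and fell in all 4 clones (-1.03, -1.05, -0.76 and -0.63). Abcc4, an efflux pump for cyclic nucleotides and drugs, had 5.58, 5.54 and 4.12 CPM in A, against 20.2, 16.3 and 24.2 CPM in parental (-1.98, SE 0.218, adjusted p = 9.51e-08), and fell in E2 (-1.15). Slc25a30, a mitochondrial carrier, stayed between 22.1 and 30.0 CPM on average and was called in no clone.

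Between clones, E2 against E1 had 3 members called lower and 0 higher, beside 0.236% of all genes called (0.0629% lower and 0.173% higher), and the count ranged from 0 to 3 when 1 library was left out. Esd, an esterase that hydrolyses S-formylglutathione, had 9.99, 18.2 and 10.1 CPM in E2, against 20.5, 27.7 and 28.8 CPM in E1 (-1.002, SE 0.324, adjusted p = 0.0413). Slc39a14, a zinc, iron and manganese importer, had 24.7, 28.7 and 36.4 CPM in E2, against 48.0, 56.0 and 61.3 CPM in E1 (-0.88, 0.0128), and Ipo5 gave -0.62 (0.0420). None of these 3 calls held throughout: that of Ipo5 was lost without any 1 library of E1 or E2, that of Esd without E1 replicate 2 or 3 or E2 replicate 1 or 3, among others, and that of Slc39a14 without E1 replicate 2 or 3 or E2 replicate 1 or 2. The median member was -0.23, and chromosome 14 had the lowest median of the 20 chromosomes (-0.26, with chromosome 2 next at -0.12).

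A against E1 had 28 members called higher and 16 lower, beside 29.6% of all genes (15% higher and 14.6% lower), close to the members' 29.5%. A against E2 had 37 higher and 4 lower, beside 22.4% (11.4% higher and 11% lower). Among called members with at least 5 CPM in A and no overlap of libraries, Clu, Tnfrsf19 and Pdlim2 were highest against E1 (3.26, 3.23 and 2.53) and Tnfrsf19, Clu and Stc1 against E2 (3.92, 2.75 and 2.04). Dzip1, at 4.78 CPM in A, was also called higher there than in E1 (4.99) and E2 (3.28). Fndc3a, a fibronectin type III protein, had 147, 137 and 154 CPM in A, against 47.5, 42.3 and 39.2 CPM in E1 and 30.6, 49.6 and 48.6 CPM in E2, with 1.76 in both comparisons. Abcc4, Polr3d and Uchl3 were lower in A than in E1 (-1.51, -1.46 and -1.41). Uchl3 and Abcc4 were also lower in A than in E2 (-0.84 each), the Uchl3 call being lost without E2 replicate 1 or A replicate 1 or 3.

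M against E1 had 11 members called higher and 1 lower, beside 3.89% of all genes (2.43% higher and 1.46% lower), and M against E2 had 19 higher and 0 lower, beside 3.50% (1.93% higher and 1.57% lower). Of the proximal chromosome 14 genes, 2 of 251 were called in M against E1 and 23 in M against E2, all higher. Pdlim2, Lcp1 and Fndc3a were higher in M than in E1 (1.59, 1.47 and 0.98). Commd6, Ctsb and Mtmr9, a myotubularin-related protein, were higher in M than in E2 (1.24, 1.16 and 1.12), and the calls of Commd6 and Mtmr9 were lost without E2 replicate 3 or M replicate 1, among others. Without E1 replicate 2, 4 members were called in M against E1, and without M replicate 3, 10 in M against E2. The median member was 0.15 in M against E1 and 0.47 in M against E2, where chromosome 14 had the highest median of the 20 chromosomes (0.43).

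M against A had 20 members called higher and 15 lower, beside 17.7% of all genes (9.20% higher and 8.55% lower), with a median of 0.00. Abcc4 and Uchl3 were higher in M than in A (1.56 and 1.34), and Tnfrsf19, Clu and Scara3 lower (-3.35, -3.22 and -1.9998). The test for any difference among the 5 populations called 82 members, beside 40.9% of all genes.

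**Figure D5:**
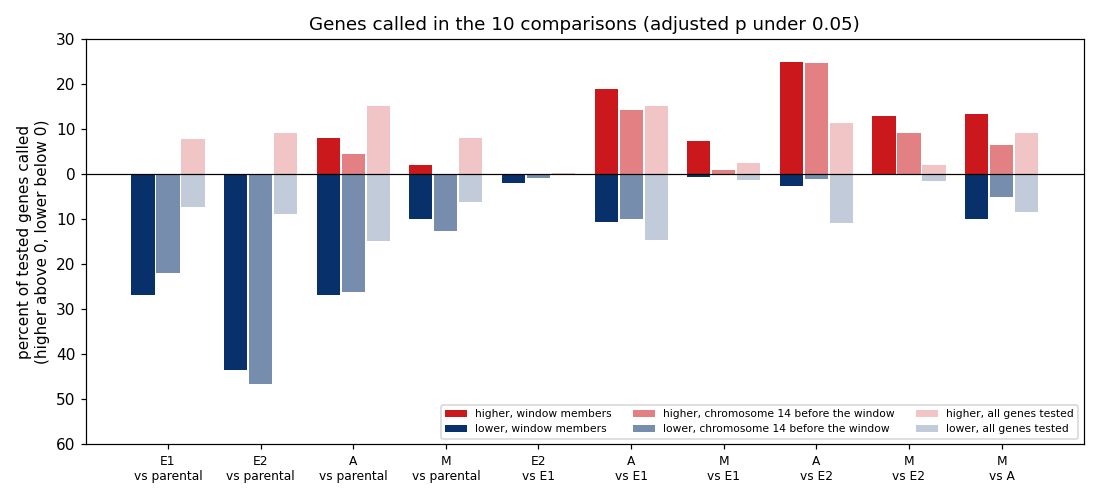
Percent of tested genes called (vertical axis, higher above 0 and lower below 0) in the 10 comparisons (horizontal axis), for window members, chromosome 14 genes before the window and all genes tested, from darkest to palest. In E1 and E2 against parental the bars of both parts of chromosome 14 point down only, at 26.8 and 43.6% for the members.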

How the data were processed

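Whole-number counts per gene were deposited for each of the 15 libraries; per the submitters' processing notes HISAT2, featureCounts and DESeq2 were used with GRCm38 (mm10), and versions, strand setting and treatment of reads with several matches are not given in the sources used here. Identifiers were matched to RefSeq's GRCm38.p6 gene table (25275) or GENCODE links (18), and 1886 stayed unnamed. Tables of the authors' normalized values were not used. Counts were scaled by TMM and fitted in edgeR 4.0.16 (R 4.3.3) by quasi-likelihood with population as the only term, after its filter on low counts. Adjusted p-values are Benjamini-Hochberg over all 12712 genes in a comparison. Fold changes carry a prior count of 2; SE is that of the difference of group means of log2 CPM. The spread between libraries corresponds to a biological coefficient of variation of 0.255. Libraries are labelled biological replicates, and the labels do not describe separate cultures, so p-values measure the spread between these libraries. Of the members, 119 had 10 counts in all 15 libraries, and 77 overlap another annotated gene.

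The members and the 8 functional lists (111 tested members in at least 1 list) were chosen with earlier results of these data known. Named genes are, among members called, with 5 CPM in the higher population and no overlap of replicates, the 6 largest changes in each direction per clone against parental and 3 per pair of clones; those set apart in 1 population; up to 3 of highest level per list; the 5 most abundant; those at the bounds; Rb1 and Mir17hg. Pibf1 and any other gene named was chosen after its values were seen. The alternatives were RLE size factors, other filters, DESeq2 1.42.0, a block for replicate number, scaling without chromosome 14 or the 6 top genes, other window bounds, members overlapping no gene, and leaving out libraries. The test was checked on simulated data with 1 common spread for all genes and independent libraries. That check therefore cannot show how the test behaves on these libraries. Some genes of the window are not reported here.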

Additional observations from a re-analysis of the deposited data

Results flagged for a closer look

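The members Fndc3a, Itm2b and Bmp1 were called in opposite directions in A and in E1 or E2 against parental. They were picked for those calls, which share the parental libraries, so a difference between the clones was largely set by the choice. Its values below, from edgeR's quasi-likelihood test with Benjamini-Hochberg adjustment, are a description and no further support. Fndc3a had a log2 fold change of 0.75 in A and -1.01 in both E1 and E2 against parental, and A exceeded E1 by 1.76 (adjusted p = 3.55e-08) and E2 by 1.76 (6.58e-08). Itm2b had 0.61 in A, -1.06 in E1 and -1.20 in E2, and A exceeded E1 by 1.67 (1.43e-07) and E2 by 1.81 (7.36e-08). Bmp1 had 0.73 in A and -0.43 in E2, and A exceeded E2 by 1.17 (1.29e-06). In each of these comparisons all 3 A libraries lay above all 3 libraries of the other clone, which the choice of these genes also favoured.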

How the results depend on the processing

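Every member median kept its direction under each alternative run, except the M against A median, which lay near 0 throughout. The count of E2 against E1 was not stable: it moved in 8 of the 15 fits that left out 1 library and fell to 0 without E1 replicate 2. Apart from the fits that left out 1 library, member counts that moved by more than 1.5 times did so as follows. E2 against E1 (3) had 5 without the filter on low counts, 1 with a mean of at least 5 CPM and 8 with DESeq2. M against E1 (12) had 20 without the filter, and M against E2 (19) had 31 without it, 35 with DESeq2 and 11 in a window narrowed by 5 Mb at each end. No share of all genes is given under these alternatives, so a change particular to the members cannot be read from the counts. Over the 72 tested members that overlap no annotated gene, a smaller set by construction, the counts were 22 for E1, 37 for E2, 25 for A and 10 for M against parental, 22, 7, 24 and 19 in A against E1, M against E1, A against E2 and M against A, and 44 for any population. Their medians were -0.84 in E2 and -0.29 in A against parental, 0.10 in A against E1 and 0.0904 in M against E1. The E2 median was -0.79 with a mean of at least 5 CPM and -0.78 with DESeq2. The A median was -0.33 without E2 replicate 1 and parental replicate 1, an alternative added after seeing the data, and -0.32 over members with 10 counts in all 15 libraries. The A against E1 median was 0.16 with a mean of at least 5 CPM and 0.12 over members with 10 counts in all libraries. The cause of these shifts was not tested.

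With the replicate block, E2 against E1 had 5 and M against E2 had 36 members called, and the E1, E2, A and M counts against parental were 45, 68, 55 and 25. These counts were each above those of the main fit. Deviations of libraries with the same number correlated at 0.0561 on average (-0.0579 to 0.213), against -0.0280 (-0.179 to 0.0630) for different numbers. Deviations were taken from each population's own mean, which ties these averages to each other with opposite signs. The average for different numbers is therefore no separate comparison. The labels do not name the replicate number as a batch, and it was left out of the main fit. Whether libraries of the same number share an effect was not tested.

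Leaving out 1 library at a time gave 24 to 45 called members in E1, 58 to 68 in E2, 44 to 53 in A and 12 to 20 in M against parental. It gave 0 to 3 in E2 against E1, 32 to 47 in A against E1, 4 to 18 in M against E1, 33 to 43 in A against E2, 10 to 26 in M against E2, 24 to 37 in M against A and 76 to 88 for any population. The medians ranged from -0.52 to -0.44 in E1, -0.83 to -0.69 in E2, -0.34 to -0.18 in A and -0.33 to -0.25 in M against parental, -0.29 to -0.19 in E2 against E1, 0.17 to 0.27 in A against E1, 0.14 to 0.20 in M against E1, 0.34 to 0.40 in A against E2, 0.42 to 0.51 in M against E2 and -0.058 to 0.0675 in M against A. Of 59 pairs of a named gene and a comparison, 49 stayed called in all alternatives run. These pairs are the largest changes named per comparison. Other calls given above, such as those of Rb1 in E1 and E2, were not among them. For the microRNA hairpins, at 0.186 to 1.46 CPM, no difference was detectable at this depth.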
